A study of Homo sapiens with 4 samples.

Results

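The guanylate-binding proteins (GBPs) are encoded by 7 genes, GBP1 to GBP7, that lie side by side on chromosome 1. For this account a peak was counted for a gene when it overlapped the GENCODE gene body on GRCh38 or the 10 kb upstream of it, and the stretch from the first to the last of these windows (chr1:89006679-89388160, 381.5 kb) was also described as a single locus. All 7 genes were found in the annotation. Their windows, which covered 213.3 kb of the locus, held 4 of 59629 peaks in the WT list and 5 of 63203 in the sgFLI1 list. With IFN-γ they held 12 of 67470 peaks in WT-IFN-γ and 7 of 59923 in sgFLI1-IFN-γ.

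GBPs are large GTPases of the dynamin superfamily and are among the genes that interferon-γ (IFN-γ) induces most strongly in many cell types. IFN-γ signals through its receptor and the kinases JAK1 and JAK2. Among the DNA elements through which it acts are GAS elements and pairs of GAAA half-sites, and the latter are bound by interferon regulatory factors (IRFs). GBPs assemble on pathogen vacuoles and on bacteria in the cytosol and promote inflammasome activity there. ATAC-seq, which uses a transposase to tag accessible DNA, reads the openness of these genes and not their expression.

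The cells were HK1, an established human nasopharyngeal carcinoma line, either wild type (WT) or carrying a FLI1 knockout made with a guide RNA (sgFLI1, FLI1-KO), and either left as untreated controls or given IFN-γ for a day. FLI1 is a transcription factor of the ETS family. The labels do not say whether the knockout cells are 1 clone or a pool, nor which guide was used. Each of these 4 groups held 1 sample with 1 peak list, called a library here (WT and sgFLI1 untreated, WT-IFN-γ and sgFLI1-IFN-γ treated). No difference was therefore tested, and the 95% intervals given here cover counting error only.

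Signal was measured as the summit pileup, the whole number of tags over a peak's summit, which the deposited fold and −log10 p together determine. For comparison between libraries it was divided by the tag density of the library, 8.04 (WT) and 8.84 (WT-IFN-γ) tags per kb in the WT libraries and 6.93 (sgFLI1) and 6.86 (sgFLI1-IFN-γ) in the FLI1-KO ones, and this quotient is called the scaled pileup. Each list has its own summit, so a ratio between libraries can compare different places within a region. The weakest peaks listed had 8 tags in the WT libraries and 7 in the FLI1-KO ones. Of 6 epithelial markers, EPCAM and CLDN7 had a peak within 1 kb of the canonical transcription start site (TSS) in every list, while KRT5, KRT14, CDH1 and TP63 had none in any. Of 6 leukocyte markers, CD14 alone had one, and PTPRC had none. Of 3 fibroblast markers, COL1A2 had one in every list, with 13 to 17 tags, and PDGFRB and DCN had none in any.

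The DNA under several of the regions is shown first, because it carries the motifs and the family resemblance described further on. In each line the capitals mark an IRF pair (GAAANNGAAA, read on either strand), a GAS element (TTCNNNGAA) or an AP-1 site (TGANTCA). The sequences come from GRCh38 and run 5′ to 3′ on the strand of the nearest member, which is the minus strand here except for GBP1P1, given on the plus strand. The longer ones reach 100 bp to either side of the WT-IFN-γ summit, and windows that touch an annotated exon are given only as 30 bases around the IRF pair. Of these 30-base sites, those of GBP1 and GBP3 and that of GBP1P1, a GBP1-related locus beyond GBP6, are set together for comparison.
GBP1 at its start, chr1:89065316-89065345: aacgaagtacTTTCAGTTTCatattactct
GBP3 at its start, chr1:89022845-89022874: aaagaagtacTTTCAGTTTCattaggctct
GBP1P1 at its start, chr1:89407573-89407602: aatgaagtacTTTCAGTTTCatattactct
GBP4 at its start, chr1:89198927-89198956: gtgcatgtccTTTCAATTTCggttctcaca
GBP1 upstream, chr1:89070107-89070307: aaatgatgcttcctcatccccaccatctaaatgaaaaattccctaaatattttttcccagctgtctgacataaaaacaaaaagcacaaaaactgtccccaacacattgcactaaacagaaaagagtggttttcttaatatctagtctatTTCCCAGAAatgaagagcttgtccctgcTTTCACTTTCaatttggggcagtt
GBP7 upstream, chr1:89177079-89177279: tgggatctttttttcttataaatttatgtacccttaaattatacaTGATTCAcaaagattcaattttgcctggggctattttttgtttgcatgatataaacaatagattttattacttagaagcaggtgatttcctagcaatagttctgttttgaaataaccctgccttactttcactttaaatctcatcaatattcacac
GBP5 upstream, chr1:89274530-89274730: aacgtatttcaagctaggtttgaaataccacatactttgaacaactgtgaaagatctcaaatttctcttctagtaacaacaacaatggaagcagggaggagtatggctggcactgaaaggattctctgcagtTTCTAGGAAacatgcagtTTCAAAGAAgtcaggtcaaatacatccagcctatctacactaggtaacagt
Distal, nearer, chr1:89286959-89287159: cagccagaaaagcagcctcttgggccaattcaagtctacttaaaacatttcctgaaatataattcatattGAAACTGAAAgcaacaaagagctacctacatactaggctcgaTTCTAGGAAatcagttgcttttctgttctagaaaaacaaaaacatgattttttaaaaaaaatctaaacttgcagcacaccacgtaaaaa
Distal, farther, chr1:89310633-89310833: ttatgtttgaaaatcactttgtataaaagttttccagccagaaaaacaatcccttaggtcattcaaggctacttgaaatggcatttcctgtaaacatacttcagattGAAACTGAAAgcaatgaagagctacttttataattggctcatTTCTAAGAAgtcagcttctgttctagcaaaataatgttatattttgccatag

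The first question was how the cluster as a whole opened with IFN-γ in each genotype. In the full locus the WT list held 5 peaks without and 18 with IFN-γ, and the FLI1-KO list 5 and 9. With −log10 q of at least 5 required, they were 4 and 14 in WT cells but 4 and 5 in FLI1-KO cells. The peaks covered 1.12% of the locus in untreated and 3.94% in treated WT cells, and 0.92% and 1.41% in FLI1-KO cells. Their scaled pileups summed to 13.3 and 98.0 in WT cells and to 12.1 and 23.8 in FLI1-KO cells. WT-IFN-γ thus stood apart from the other 3 libraries, and the untreated libraries had 5 peaks each. These sums move with how much was called in each list.

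**Figure D1:**
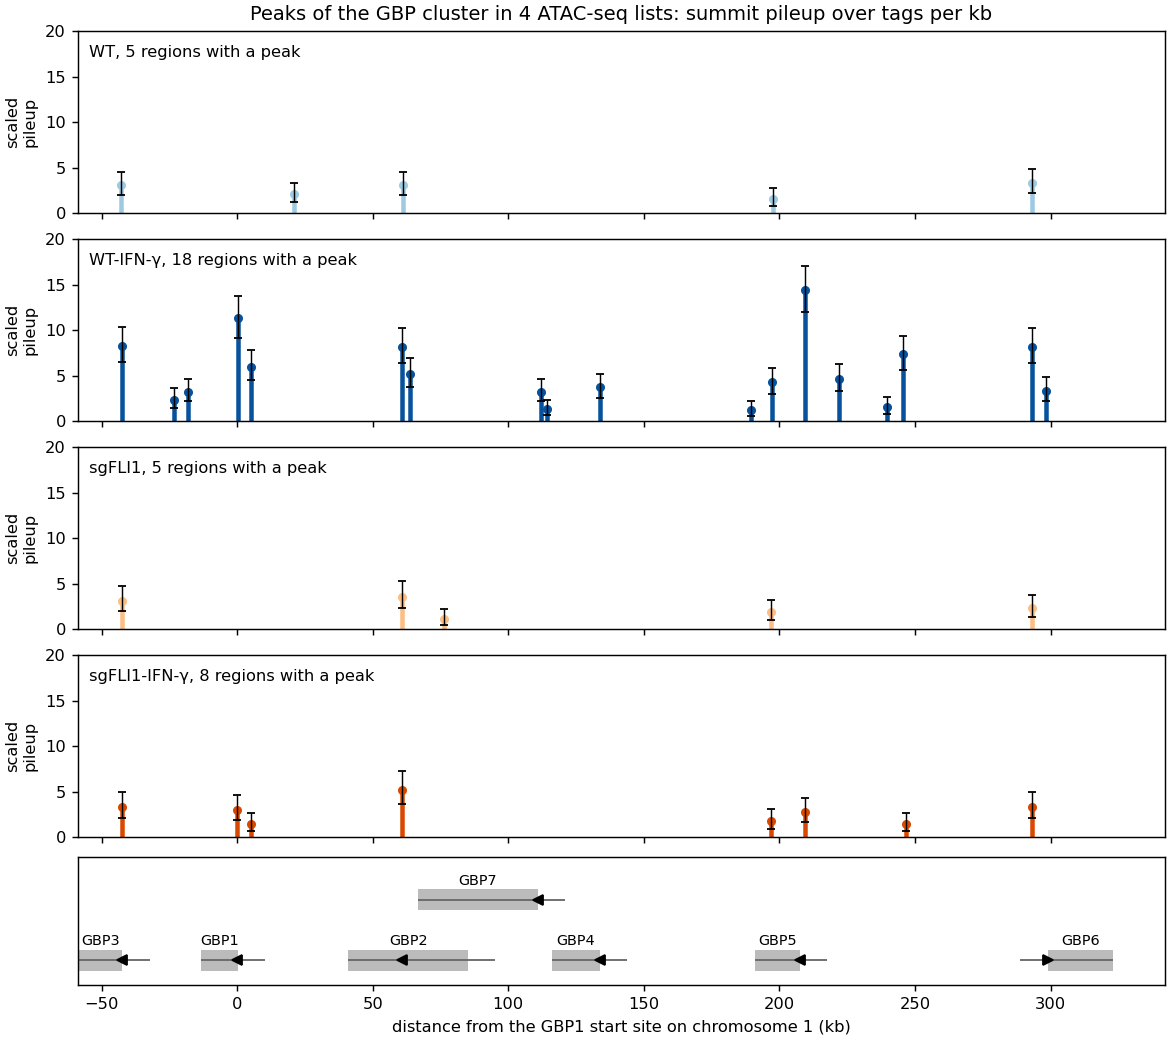
Scaled summit pileup (summit tags over tags per kb, with 95% Poisson intervals as bars) of every region with a peak in the GBP locus, by distance in kb from the GBP1 TSS, 1 panel for each of the 4 libraries. Grey boxes are gene bodies, thin lines the windows with 10 kb upstream and triangles the TSSs and their direction; WT-IFN-γ has 18 regions and the highest value, and the other libraries have 5 to 8.

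A region is called gained when a treated peak shared no base with a peak of the untreated list of the same genotype, and lost in the reverse case. Among the 12 WT-IFN-γ peaks in the members' windows, 8 were gained, against 25.2% of all WT-IFN-γ peaks, and 14 of the 18 in the locus were. None of the 4 WT peaks in the windows was lost, where 15.9% of all WT peaks were. In FLI1-KO cells 3 of the 7 sgFLI1-IFN-γ peaks in the windows were gained, against 18.0% of all in that list, and 1 of the 5 sgFLI1 peaks was lost, against 22.2%. With −log10 q of at least 5 required of every peak, 8 of the 11 peaks in the windows were gained in WT, against 19.3% of all peaks so chosen, and 2 of 5 in FLI1-KO cells, against 10.6%.

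By gene, 6 of the 7 members had a gained region in WT cells, namely all but GBP3, and among 19962 protein-coding genes the share was 32.0%. In FLI1-KO cells GBP1 and GBP5 had one, 2 of 7, against 22.9% of protein-coding genes. The share over all genes includes genes with shorter and longer windows than these. Of the 8 regions gained in WT within the windows, 3 were met by a sgFLI1-IFN-γ peak, where 25.9% of all WT-gained regions were, and with so few regions these shares cannot be told apart. Among all 12 WT-IFN-γ peaks in the windows, 5 had no sgFLI1-IFN-γ peak, against 29.0% of the list. Without IFN-γ, none of the 4 WT peaks in the windows lacked a sgFLI1 peak, against 21.4% of the WT list.

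Merging the 4 lists gave 20 regions in the locus, of which 13 lay in the windows. Of the 20, 10 were in WT-IFN-γ alone, against 11.6% of 93211 regions merged in the same way over the genome. A further 4 were in both treated lists and in neither untreated one, against 1.74%, and 4 were in all 4 lists, against 43.9%. Of the remaining 2, 1 was in WT alone and 1 in sgFLI1 alone. No region was in sgFLI1-IFN-γ without being in WT-IFN-γ too. Some of the 10 regions in WT-IFN-γ alone were so weak that a like signal could be missed in another list, as given below.

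GBP1 (ENSG00000117228.11, minus strand, 89051882 to 89065360) encodes the GBP that coats cytosolic Gram-negative bacteria and recruits other members to them. Neither untreated list had a peak over its start. With IFN-γ this region had 100 tags in WT cells (81.4 to 122), with the summit at -150 bp from the canonical TSS, and 21 tags in FLI1-KO cells (13.0 to 32.1), with the summit at -76 bp. The intervals of the treated libraries did not overlap, and the ratio of their scaled pileups was 3.7 (2.29 to 6.23). At the depth of WT the WT-IFN-γ signal would have been 91 tags over a background of 10.4, and 22 tags would have been enough to be listed over that background, a number called the listing limit here.

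A further GBP1 region, 5 kb upstream (chr1:89070100-89070676), followed the same pattern. With IFN-γ it had 53 tags in WT cells (39.7 to 69.3) and 10 in FLI1-KO cells (4.8 to 18.4), and it was in neither untreated list. The ratio was 4.11 (2.07 to 9.07). Both GBP1 regions were thus gained in both genotypes and were lower in the treated FLI1-KO library.

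GBP5 (ENSG00000154451.15, minus strand, 89256189 to 89272860) encodes a prenylated GBP that promotes NLRP3 inflammasome assembly. No list had a summit within 1 kb of its TSS. Upstream of it, at chr1:89273978-89275083, a region had 127 tags in treated WT cells (106 to 151), with the summit at -1770 bp, and 19 tags in treated FLI1-KO cells (11.4 to 29.7), with no peak in either untreated list. The ratio of 5.19 (3.19 to 8.9) was the highest among the 8 locus regions listed in both treated libraries. By −log10 q it ranked in place 6 of the 16999 regions gained in WT, and the GBP1 start ranked in place 11.

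Inside GBP5 a region had its WT-IFN-γ summit over exon 11 of the canonical transcript, in coding sequence, 10538 bp downstream of the TSS. That summit also lay over an intron of the antisense lncRNA ENSG00000237568. In the other lists the summit was at 10104 bp (WT), 10681 bp (sgFLI1) and 10691 bp (sgFLI1-IFN-γ), so the tags were not read at the same base. In WT cells the region had 13 tags untreated (6.92 to 22.2) and 38 treated (26.9 to 52.2), and in FLI1-KO cells 13 untreated (6.92 to 22.2) and 12 treated (6.2 to 21). WT-IFN-γ was the high library, with a ratio to sgFLI1-IFN-γ of 2.46 (1.26 to 5.17), and the other 3 had overlapping intervals.

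GBP2 (ENSG00000162645.13, minus strand, 89106132 to 89150456) encodes another prenylated GBP that joins GBP1 on vacuoles and bacteria. Its gene body includes a long transcript that runs far upstream of the canonical TSS at 89126114. The region at that TSS was open in every list, with 25 tags in untreated (16.2 to 36.9) and 72 in treated WT cells (56.3 to 90.7), and 25 in untreated (16.2 to 36.9) and 36 in treated FLI1-KO cells (25.2 to 49.8). WT-IFN-γ had the highest scaled pileup, 8.15, followed by sgFLI1-IFN-γ with 5.25, sgFLI1 with 3.61 and WT with 3.11.

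Among the 8 locus regions listed in both treated libraries, the GBP2 start had the smallest difference, with a ratio of 1.55 (1.03 to 2.39). A second GBP2 region, with its summit at -2984 bp in an intron of the long transcript and of the lncRNA ENSG00000286802, was in WT-IFN-γ alone with 46 tags (33.7 to 61.4), where 35.7 tags would be equivalent in sgFLI1-IFN-γ and the listing limit was 18. A weak region of 8 tags (3.45 to 15.8) was in sgFLI1 alone, at chr1:89141323-89141608. It lay within the overlapping bodies of GBP2, GBP7 and that lncRNA and was counted for both GBP2 and GBP7.

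GBP3 (ENSG00000117226.12, minus strand, 89006679 to 89022894), which takes part in the GBP coat on bacteria, was also open in every list. The region over its first exon had 25 tags in untreated (16.2 to 36.9) and 73 in treated WT cells (57.2 to 91.8), and 22 in untreated (13.8 to 33.3) and 23 in treated FLI1-KO cells (14.6 to 34.5). The sgFLI1-IFN-γ value was within the interval of the sgFLI1 value, and WT-IFN-γ was the only library set apart. GBP3 was the member with no gained region, since the peak was present before treatment, yet its ratio between treated and untreated WT was 2.66 (1.67 to 4.37). The summits behind this ratio lay at different places, 427 bp downstream of the TSS in WT and 86 bp in WT-IFN-γ.

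GBP4 (ENSG00000162654.9, minus strand, 89181144 to 89198942), a further component of that coat, had a single region in WT-IFN-γ alone, with 33 tags (22.7 to 46.3) and the summit at -19 bp from the TSS, over exon 1 of the divergent lncRNA ENSG00000284734. At the depth of sgFLI1-IFN-γ this signal would have been 25.6 tags, and the listing limit there was 10. A region of that strength would thus have been listed.

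GBP6 (ENSG00000183347.15, plus strand, 89364059 to 89388160) is the member on the opposite strand, at the far end of the cluster. A region at -5547 bp was in every list, with 27 tags in untreated (17.8 to 39.3) and 72 in treated WT cells (56.3 to 90.7), and 16 in untreated (9.15 to 26) and 23 in treated FLI1-KO cells (14.6 to 34.5). WT-IFN-γ again lay above the rest. A second region, at -688 bp, had 30 tags in WT-IFN-γ (20.2 to 42.8) and no peak elsewhere, where 23.3 tags would be equivalent in sgFLI1-IFN-γ and the listing limit was 14.

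GBP7 (ENSG00000213512.3, minus strand, 89131742 to 89176009), between GBP2 and GBP4, had no summit within 1 kb of its TSS in any list. A region at -1176 bp had 29 tags (19.4 to 41.6) and a region at -3609 bp had 12 (6.2 to 21), both in WT-IFN-γ alone. For the first, 22.5 tags would be equivalent in sgFLI1-IFN-γ against a listing limit of 9, so a like signal would have been listed. For the second, 9.31 tags would be equivalent against the same limit of 9, so its absence was not detectable at this depth.

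**Figure D2:**
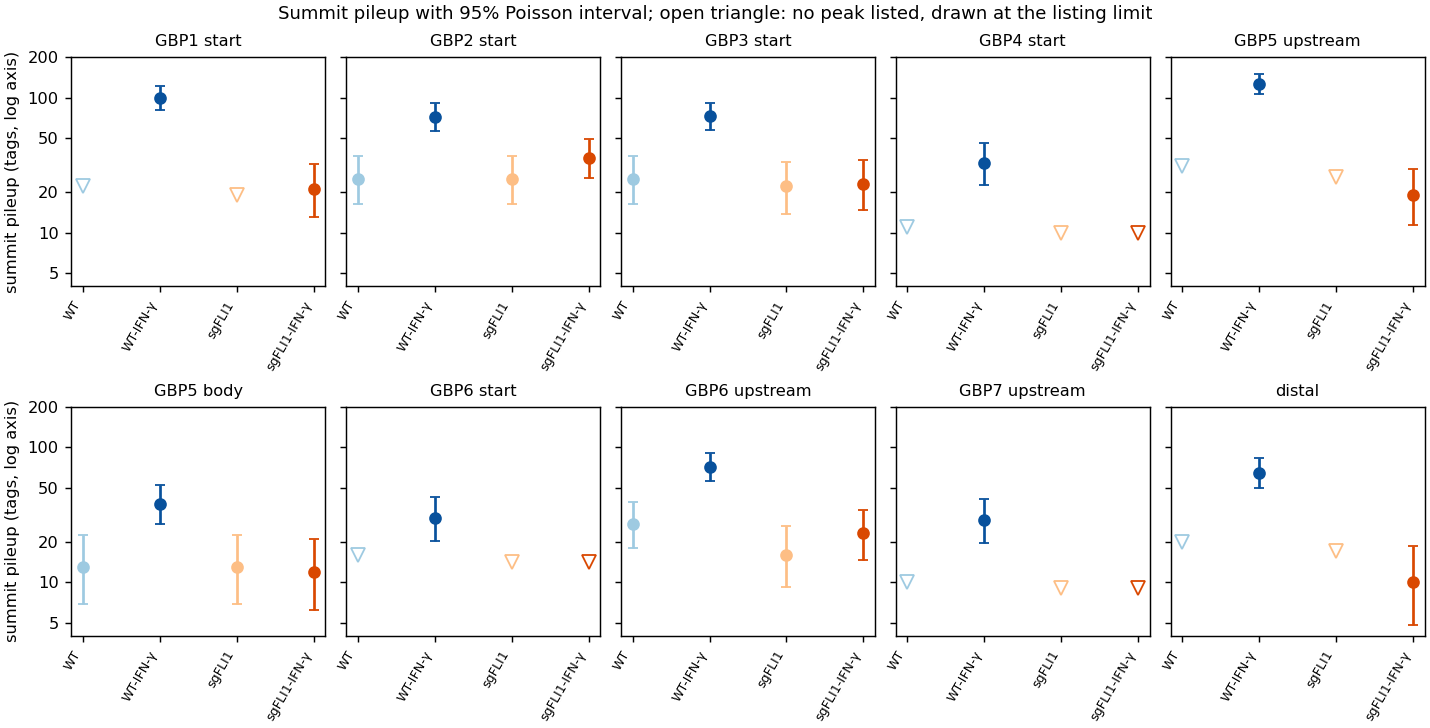
Summit pileup in tags (log axis) of 10 regions of the GBP cluster in the 4 libraries, with 95% Poisson intervals. An open triangle marks a library with no peak there, drawn at the listing limit for the WT-IFN-γ local background scaled to that library's depth; in each panel WT-IFN-γ has the highest point.

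Outside the windows the strongest region lay between GBP5 and GBP6, at -37873 bp from the GBP5 TSS (chr1:89310013-89312105, the farther distal sequence above). In treated WT cells it had 65 tags (50.2 to 82.8). In treated FLI1-KO cells it was met by 2 weak peaks, the higher with 10 tags (4.8 to 18.4) and its summit at a different place within the region, and the ratio between them was 5.05 (2.58 to 11). The nearer distal region, at -14199 bp, had 41 tags in WT-IFN-γ (29.4 to 55.6) and no peak in the other 3 lists. Of the other regions outside the windows, 4 were in WT-IFN-γ alone with 11 to 29 tags, and 1 was in WT alone with 17 tags (9.9 to 27.2). For those of the 4 with 11, 14 and 21 tags, 8.54, 10.9 and 16.3 tags would be equivalent in sgFLI1-IFN-γ. The listing limits there were 7, 9 and 15, and signals so near the limit could be missed.

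The tag background around the peaks differed in the same direction as the peaks. MACS takes the local background from the library's own tags over a wider stretch around a peak. That stretch includes the peak itself, so a higher peak raises the background, and peak and background are not independent values. Over the locus peaks the median local background was 1.2 times the library background in untreated and 3.07 times in treated WT cells. In FLI1-KO cells it was 1.1 and 1.38 times, and the medians over the whole lists were 1.79 to 1.96. The highest value, 7.44, was at the upstream GBP5 region in WT-IFN-γ, where sgFLI1-IFN-γ had 1.67. Of the 18 WT-IFN-γ peaks, 12 exceeded 2.03, the highest value of any other library in the locus.

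Because both pileup and background were higher, the deposited fold differed less than the pileup. At GBP1 the fold was 8.89 in WT-IFN-γ and 6.19 in sgFLI1-IFN-γ, a ratio of 1.44 where that of the pileups was 3.7. At the GBP2 start the fold was 6.76 in WT-IFN-γ and 8.13 in sgFLI1-IFN-γ, which is the opposite order to the pileups. 

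**Figure D3:**
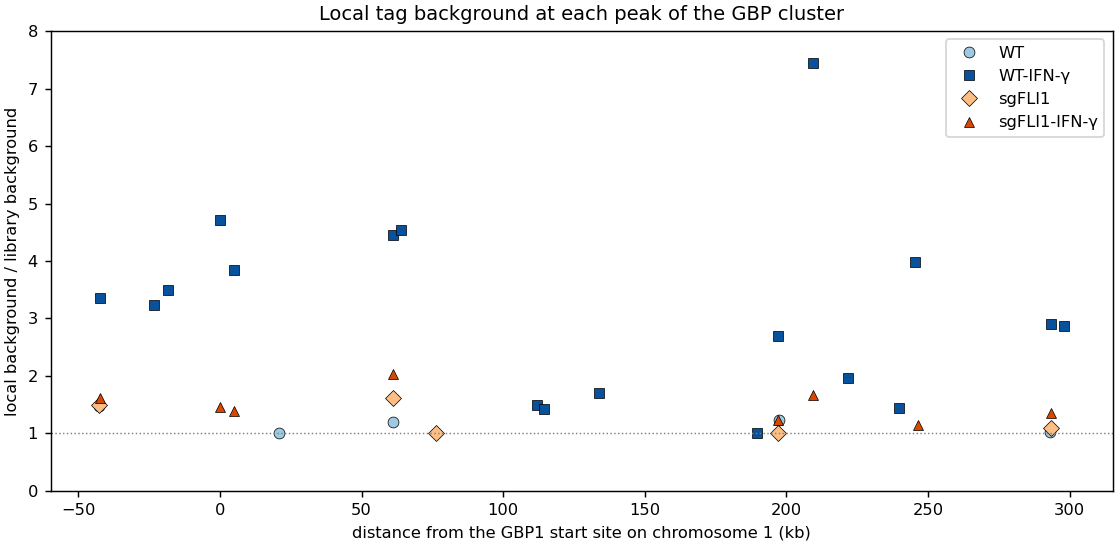
Local tag background divided by the library background at each listed region of the GBP locus, by distance in kb from the GBP1 TSS, with 1 symbol for each of the 4 libraries. WT-IFN-γ spans 1.0 to 7.44 and the other 3 libraries stay between 1.0 and 2.03.

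The members were then set against all peaks that overlapped one to one between a pair of lists, with scaled pileups. Of the 8 locus regions found in both treated libraries, 7 were such pairs, and 6 of these 7 were at least 2 times as high in WT-IFN-γ, against 3.29% of 46911 pairs. Their ratios ran from 1.55 to 5.19 with a median of 2.46. The eighth, the farther distal region, met 2 sgFLI1-IFN-γ peaks and had the ratio of 5.05 given above. All 8 intervals lay above 1. Local background was 2.08 to 4.46 times as high at these 8 regions, and by the deposited fold over that background none of the 8 was at least 2 times as high, with ratios from 0.831 to 1.84 and a median of 1.42, where the median of all pairs was 1.03 and 0.799% of them reached 2. Within 5 Mb on either side, 208 other pairs had a median ratio of 0.952.

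With IFN-γ in WT cells, all 4 regions present in both lists were at least 2 times as high, from 2.43 to 2.66, against 1.80% of 49258 pairs, and by the deposited fold none was, with ratios from 0.949 to 1.49, against 0.516% of pairs. In FLI1-KO cells none of the same 4 regions was, against 0.210% of 48175 pairs. That share is too low for 4 regions to be set apart from it. Their ratios ran from 0.933 to 1.46 with no interval above 1, where the median of all pairs was 0.909. The GBP2 start (1.46) and the upstream GBP6 region (1.45) were higher than 97% and 96.9% of pairs. The GBP3 start (1.06) and the GBP5 coding region (0.933) were higher than 75.6% and 55.3%. Without IFN-γ the WT to sgFLI1 ratio was at least 2 in none of the 4, against 1.87% of 45942 pairs, and ran from 0.862 to 1.45 with no interval above 1. The first of these comparisons and the one between treated libraries share the WT-IFN-γ library and are not independent.

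**Figure D4:**
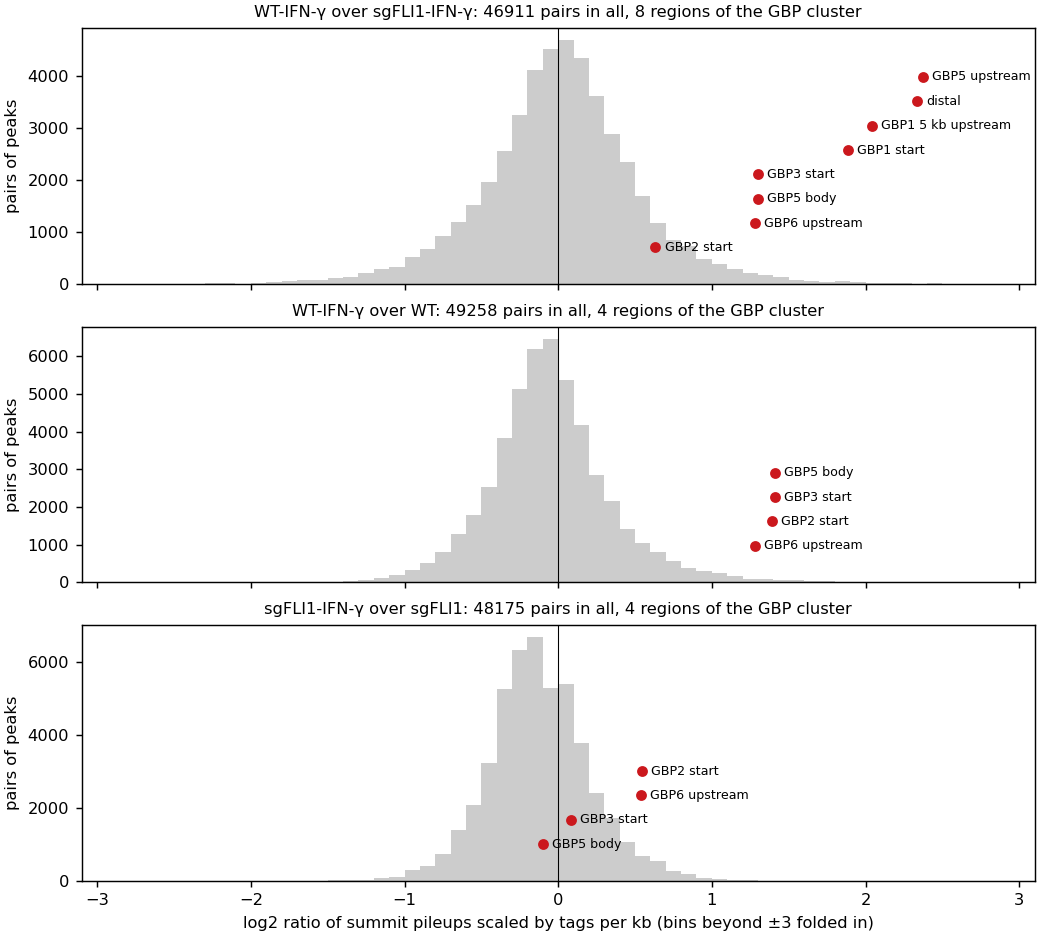
Log2 ratios of scaled summit pileups for all one-to-one pairs of peaks (grey bars, number of pairs) in 3 pairs of libraries, with the GBP cluster regions as labelled points, whose height has no meaning; the distal point is the region that met 2 peaks. The cluster points lie to the right of the bulk in both panels with WT-IFN-γ in the numerator. In the sgFLI1-IFN-γ to sgFLI1 panel they run from 0.933 to 1.46 in ratio, where the median of all pairs is 0.909.

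Genes next to the cluster were read as a comparison. The shared promoter of KYAT3 and RBMXL1, just outside the locus, had 132 tags in untreated and 146 in treated WT cells, and 137 and 110 in FLI1-KO cells. Its scaled pileups were 16.4 and 16.5 in WT cells and 19.8 and 16.0 in FLI1-KO cells. At LRRC8B, on the other side, they were 9.7 and 8.37 in WT cells and 7.36 and 7.87 in FLI1-KO cells. Neither showed the pattern of the cluster. GBP1P1, chosen after its values were seen, had a region at its start in WT-IFN-γ alone with 21 tags (13.0 to 32.1).

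Several regions of the cluster were copies of each other in sequence. In local alignments of 501 bp around the summits (210 pairs), the GBP1 start and the GBP1P1 start were identical at 91.8% of 477 aligned columns, and the GBP1 and GBP3 starts at 74.1% of 386. The GBP1 and GBP2 starts matched at 67.7% of 297. The 2 distal regions beyond GBP5 matched at 76.8% of 272. Of the regions outside the windows, the one in WT alone and one in WT-IFN-γ alone (chr1:89046887-89047216) matched at 77.8% of 400.

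The 30 bases around the IRF pair differed at 5 positions between GBP1 and GBP3 and at 1 between GBP1 and GBP1P1. Between the distal regions they differed at 4. Copies of this kind can share reads. Of the 50-base words in the GBP1 start region, 9.76% occurred again within the locus or the DNA just beyond it, GBP1P1 included. The share was 1.87% in the GBP3 start region, while the upstream GBP5 region had none. It was higher in the GBP1P1 start region, 16.3%, and in the weak sgFLI1 region at chr1:89141323-89141608, 13.5%. Alignments of low mapping quality had been removed before peaks were called.

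Motifs were counted up to 100 bp from the summit on both strands, and no matches of different motifs overlapped in these regions. The IRF pair was in 4 of the 8 WT-gained regions of the windows and in 6 of the 14 of the locus, where it was in 5.6% of all WT-IFN-γ peaks and 13.4% of all WT-gained ones. Among the 4 were both GBP1 regions and the GBP4 start. The GAS element was also in 4 of the 8 and 6 of the 14, against 6.89% of all WT-IFN-γ peaks and 9.35% of gained ones. Among these were the upstream regions of GBP1 and GBP5 and the GBP4 start, and the upstream GBP5 region held 2 of them. An element in a GBP gene and one in its copy are not independent.

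Both distal regions held an IRF pair and a GAS element. Among the 4 regions open in all lists, only the GBP3 start held an IRF pair, and none held a GAS element. The AP-1 site was at the GBP2 start and in the upstream GBP7 region, and it was in 23.5% of all WT-IFN-γ peaks. The ETS site searched (CCGGAAGT, both strands), of the kind bound by FLI1 and its relatives, was in none of the 20 regions within 250 bp, and it was in 2.06% of all WT-IFN-γ peaks and 0.418% of WT-gained ones at that distance, shares too low for so few regions to be set apart from them. These letters alone were searched, and other ETS sequences were not.

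In the RefSeq promoter table (GRCh38, 250 bases before to 50 after each start), 5 of the 7 members were matched, and GBP2 and GBP5 were not. The IRF pair was in the promoters of GBP1, GBP3 and GBP4, 3 of the 5, against 3.57% of 35116 promoters. The GAS element was in that of GBP3, against 7.66%, and the AP-1 site in those of GBP3 and GBP6, 2 of the 5, against 7.71%. The ETS site was in none of the 5, against 4.14%.

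The other genes of the pathway were read with the same windows. Of 32 genes, 18 had a gained region in WT cells and 11 in FLI1-KO cells, where the shares over all protein-coding genes were the 32.0% and 22.9% given above. A lost region was at 7 of the 32 in WT cells, against 21.5% of protein-coding genes, and at 13 in FLI1-KO cells, against 28.0%. In FLI1-KO cells more of these genes thus had a lost region than a gained one. The same order held over all protein-coding genes, with 28.0% and 22.9%, and is not particular to the pathway. Of 14 genes of the IFN-γ receptor and its signalling, 9 and 4 had a gained region, the latter count being near the share over all genes, and of 11 genes that act with GBPs at vacuoles and in inflammasomes, 6 and 5. Both MX genes, the other interferon-inducible dynamin-like GTPases, had one in WT cells and neither did in FLI1-KO cells. The MX1 region had 11 tags (5.49 to 19.7) and the MX2 region 19 (11.4 to 29.7). A signal as weak as that at MX1 could be missed in sgFLI1-IFN-γ, where the weakest peaks listed had 7 tags. Of 5 related GTPases with no interferon role, 1 and 2 had a gained region in WT and FLI1-KO cells. The lists are small, and no difference between them was tested.

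By the −log10 q of the gained region the leading pathway genes were AIM2, CIITA, PTPN2, UBE2L6 and RNF213. At AIM2, which encodes a cytosolic DNA sensor of the inflammasome, the region had 132 tags in treated WT cells (110 to 157) and 28 in treated FLI1-KO cells. At CIITA, the master activator of MHC class II genes, it had 136 (114 to 161) and 38. At PTPN2, a phosphatase that dampens JAK signalling, it had 49 tags (36.3 to 64.8), at UBE2L6, the conjugating enzyme of the ubiquitin-like protein ISG15, 62 (47.5 to 79.5), and at RNF213, a ubiquitin ligase, 72 (56.3 to 90.7), and these 3 had no sgFLI1-IFN-γ peak.

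The genes whose TSS pattern was nearest to the median of the 5 members with a TSS region were sought by Euclidean distance of log2 scaled pileups over the 4 libraries, with a library without a peak set at its lowest listed pileup. Among 12704 genes they were OAS2 (0.35), CHD9NB (0.44), NFATC1 (0.53), IL18BP (0.54) and IFI27 (0.59). None had a TSS peak in an untreated list. This and the tags that follow largely restate how the genes were chosen, since the median lay at the listing floor in both untreated lists. OAS2, an antiviral oligoadenylate synthetase, had 87 tags in treated WT and 18 in treated FLI1-KO cells, CHD9NB had 53 and 21, and NFATC1, a transcription factor of T cells and other tissues, had 50 and 20. IL18BP, a secreted inhibitor of interleukin-18, had 61 and 15, and IFI27, an interferon-inducible gene, had 53 and 16. Of the 5 members GBP1 lay at 0.47 from the median, while GBP4 lay at 1.94, GBP6 at 2.03, GBP3 at 2.33 and GBP2 at 2.58. The median thus had the pattern of GBP1 and not that of the other 4 members, and these genes are near to GBP1 alone.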

How the data were processed

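Chromatin accessibility in HK1 cells was measured by ATAC-seq in 4 groups with 1 peak list each. According to the study's methods and the submitters' processing notes, the authors ran Trimmomatic 0.3 on the reads, mapped them with Bowtie2 2.3.4.1 on GRCh38, removed low-quality alignments with SAMtools and duplicates with Picard, and called peaks with MACS2 2.1.2. Whether a list holds 1 replicate or pooled ones, whether it precedes the reproducibility filter the methods name, and whether the ends of tags were offset for Tn5 are not given in the sources used here.

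The deposited peaks each carry the authors' score, a fold over the local background (a ratio) and −log10 p and −log10 q values, as MACS writes them. A whole-number pileup and a background that satisfy both fold and −log10 p were found for 100% of the peaks. The lowest background of a list over the length of its shortest peak is the tag density, which varies with MACS's genome size setting and serves only to compare libraries. No peak ended beyond a GRCh38 chromosome.

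Peaks with 1 bp in common were counted as shared between lists. Pileups have exact Poisson intervals and ratios exact conditional binomial ones. Since molecular identifiers were not mentioned, these bounds hold for counting error alone. The listing limit is the lowest pileup whose Poisson p over the scaled WT-IFN-γ background reached the lowest −log10 p of a list. Local alignments scored 1 for a match, -1 for a mismatch and -2 for each gap base. The members and lists were chosen with earlier results of these data known. Named genes were the 7 members, other genes of the locus that hold a peak, up to 5 pathway genes by the −log10 q of their region gained in WT, and the 5 genes of nearest TSS pattern. The alternatives were other windows, a −log10 q limit of 5, equal list sizes, other definitions of overlap and other scalings. Some sequences and the motif and copy results that rest on them are not reported here. Pileup recovery and overlap were tested on simulated data. The work used Python 3.11.15, scipy 1.17.1, numpy 2.4.6, matplotlib 3.10.9 and pandas 2.3.3.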

Additional observations from a re-analysis of the deposited data

Results flagged for a closer look

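The number of peaks moved in opposite directions with IFN-γ in WT and FLI1-KO cells at 2 genes. At GBP2 it changed by 1 in WT cells and by -1 in FLI1-KO cells, and at GBP7 by 2 and by -1. The change of -1 was the same peak at both genes, the weak sgFLI1 region of 8 tags (3.45 to 15.8), which was at the limit of listing. The difference between genotypes was not tested, there being 1 library per group.

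The region in the GBP5 coding sequence had a treated to untreated ratio of 2.66 (1.39 to 5.44) in WT cells and of 0.933 (0.389 to 2.22) in FLI1-KO cells. These values lie on opposite sides of 1 by the tag-density scaling alone. The median ratio of all one-to-one peaks was 0.952 in WT and 0.909 in FLI1-KO cells, and divided by it the ratios were 2.79 and 1.03, both above 1. The interval in FLI1-KO cells included 1, and the difference between genotypes was not tested. In WT cells the summits compared lay at different places in the region.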

How the results depend on the processing

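Of 88 values recomputed for 30 results under the alternatives, 79 held and 9 did not. A count held when it stayed within 1.5 times the main count. A ratio held when it stayed within its interval and on the same side of 1. With −log10 q of at least 5 the locus held 5 sgFLI1-IFN-γ peaks instead of 9. With equal list sizes 0 member peaks were lost in FLI1-KO cells instead of 1. Within 50 bp of the summit the IRF pair was in 2 WT-gained member regions instead of 4, the GAS element in 1 instead of 4 and the AP-1 site in 0 instead of 1, and within 250 bp the AP-1 site was in 2. A narrower stretch holds fewer matches by construction. In alternatives chosen after seeing the data, the deposited fold put 0 locus regions at 2 times or more, instead of 7 between the treated libraries and 4 with IFN-γ in WT cells, and the median ratio of shared peaks turned the FLI1-KO ratio of the GBP5 coding region from 0.933 to 1.03. At the GBP1, GBP2 and GBP3 starts 3 settings were tried: the median ratio of shared peaks, local background subtracted, and the highest peak within 3 kb. The ratios between treated libraries there stayed between 3.64 and 3.77, 1.49 and 1.55, and 2.43 and 2.52. By the deposited fold they were 1.44, 0.831 and 1.41, which put GBP2 below 1. No paired analysis was possible because no result comes from a test and each group has 1 library.

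With 1 library per group, neither a genotype difference nor a treatment difference can be told apart from one of preparation. Differences between weak peaks near 8 tags were not detectable at this depth, and a region missing from a list can still be open below the listing limit.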
